A study of Homo sapiens with 12 samples.

Results

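The nuclear-encoded subunits of respiratory complexes I to IV were examined in 2 RNA-Seq experiments on cells labelled as LNCaP, a prostate cancer line, or as a line derived from it. Members were the genes whose symbols name a subunit of complex I (NDUF genes), complex II (SDHA to SDHD), complex III (UQCR genes and CYC1) or complex IV (COX4 to COX8 genes), without assembly factors, antisense genes, readthrough genes or pseudogenes. The rule found 68 members among the 23435 genes listed in both count tables, of which 38 belong to complex I, 4 to complex II, 9 to complex III and 17 to complex IV. By its symbol NDUFA4 was counted with complex I, although its protein is now placed in complex IV.

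In the silencing experiment, LNCaP-ER cells, an enzalutamide-resistant line derived from LNCaP that carries a doxycycline (DOX)-inducible MUC1 shRNA, received 500 ng/mL DOX or vehicle for 7 days. In the overexpression experiment, libraries labelled LNCaP, with wild-type given as their treatment, were set beside libraries labelled as LNCaP with MUC1-C overexpression (MUC1-C OE). Each of the 4 groups had 3 libraries from cultures of 1 line, so p-values cover the spread between cultures of that line. DOX was given only to cells that carry the shRNA, so an effect of DOX itself and one of silencing cannot be told apart.

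The respiratory chain passes electrons from NADH, through complex I, and from succinate, through complex II, to ubiquinone, then through complex III to cytochrome c and through complex IV to oxygen. Complexes I, III and IV pump protons across the inner mitochondrial membrane, and ATP synthase uses that gradient. The core of complexes I, III and IV also holds subunits encoded by mitochondrial DNA, while complex II is entirely nuclear-encoded, so the nuclear genes described here supply only a part of each proton pump. Their promoters are known to hold sites for nuclear respiratory factor 1 (NRF1), for ETS family factors such as GABP, and for YY1.

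Total counts ran from 28045894 to 45807989 in the silencing experiment and from 13806856 to 19208944 in the overexpression experiment, and the members took between 0.558% and 0.694% of them. The silencing target could barely be measured, since MUC1 had 26, 10 and 13 counts in vehicle and, in libraries labelled DOX, 3, 42 and 8 counts, with the highest count in DOX replicate 2. That library also stood apart in listing 11.2% of genes at 0, against 27.95% to 38.1% in the other libraries of that experiment. In the overexpression experiment MUC1 rose from 1.47 ± 0.145 to 712 ± 79.8 CPM (counts scaled to a common library total, mean ± SD, n = 3). The luminal prostate markers went against the LNCaP label there. The sum of 8 such markers was 181 to 196 CPM in libraries labelled LNCaP and 66.0 to 70.8 CPM in those labelled MUC1-C OE, where 3 of the 8 were at 0 in all libraries, KLK3 among them, against 6758 to 6944 CPM in LNCaP-ER vehicle. Sums of 8 neuroendocrine markers were 203 to 215 CPM and 149 to 169 CPM in the same libraries labelled LNCaP and MUC1-C OE. In LNCaP-ER they were 4.20 to 7.26 CPM in vehicle and 6.96 to 27.3 CPM in DOX libraries. In the silencing experiment the summed leukocyte markers were 5.28 to 7.69 CPM in vehicle and 22.8 to 25.1 CPM in DOX libraries, nearly all of it CD68, with no count for PTPRC in any vehicle library and 0 to 11 counts in DOX libraries. The part of these marker differences in the results below was not tested.

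Promoter sequences are shown for 5 members, all but SDHD higher with MUC1-C OE, so that the letters known to bind the regulators above can be seen in place. The 5 are examples that each hold a match, whereas 25 of the 56 members with a window held none of the motifs searched. Each run is the 150 bases just before the RefSeq transcription start, 5′ to 3′ on the strand of the gene in GRCh38.p14, with matches in capitals to NRF1 (the half-site GCGCA, any base, then GCGC), to ETS factors (CCGGAAG) or to the reverse complement of either. NDUFA3 and UQCRFS1 hold the NRF1 letters, SDHB and UQCRH the ETS letters, and SDHD both.
NDUFA3, chr19:54102705-54102854, plus strand: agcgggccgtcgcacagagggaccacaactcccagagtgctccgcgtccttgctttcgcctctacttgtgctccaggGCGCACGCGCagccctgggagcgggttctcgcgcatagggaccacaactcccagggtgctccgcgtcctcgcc
SDHB, chr1:17054033-17054182, minus strand: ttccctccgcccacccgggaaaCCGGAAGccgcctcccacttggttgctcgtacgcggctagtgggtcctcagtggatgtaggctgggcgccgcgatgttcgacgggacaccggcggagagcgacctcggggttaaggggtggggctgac
SDHD, chr11:112086723-112086872, plus strand: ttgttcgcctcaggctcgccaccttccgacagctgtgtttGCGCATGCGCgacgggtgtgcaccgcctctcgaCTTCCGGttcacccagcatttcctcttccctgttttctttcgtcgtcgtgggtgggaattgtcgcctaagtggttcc
UQCRFS1, chr19:29213152-29213301, minus strand: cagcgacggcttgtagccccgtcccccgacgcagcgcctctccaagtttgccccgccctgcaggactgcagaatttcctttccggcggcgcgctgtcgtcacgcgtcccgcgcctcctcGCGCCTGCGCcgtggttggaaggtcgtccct
UQCRH, chr1:46303548-46303697, plus strand: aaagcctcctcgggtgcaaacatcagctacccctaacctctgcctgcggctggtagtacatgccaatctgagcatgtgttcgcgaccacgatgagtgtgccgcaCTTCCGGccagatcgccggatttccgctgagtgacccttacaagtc

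Across RefSeq windows from 250 bases before to 50 after the start, read on both strands, 56 of the 68 members were matched by symbol. The ETS letters were found for 15 members (26.8%), against 12.2% of 27305 genes. The latter are all genes with a window, whether or not they were tested here, and a match in any window of a gene counted. NRF1 in the strict form, with T as the middle base, was found for 3 members (5.36%, NDUFA8, NDUFB4 and SDHD) against 1.52% of genes, and the looser form, which includes the strict one, for 13 members (23.2%) against 6.98%. YY1 (AAGATGGCG) was found for 8 members (14.3%) against 2.14%, and the E-box (CACGTG), which MYC can bind, for 4 members (7.14%) against 8.77%. Of the 4 E-box members NDUFA7, NDUFA11, NDUFS7 and UQCR11, all were higher with MUC1-C OE, a direction shared by 20 of the 56 members with a window. The call of UQCR11 was lost with library size only. Of the members with strict NRF1 letters, 0 were higher with MUC1-C OE, 2 lower and 1 not called. For the looser form these counts were 5, 2 and 5, with COX8C not tested, and for YY1 they were 4, 1 and 3. A link between any of these motifs and the direction was not tested. No motif of these was found for 25 members, among them NDUFA2, NDUFB1, NDUFB2, COX5A and COX7B. A match describes letters in a window and does not show binding.

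Levels per length were compared with the deposited TPM values, which exist for the silencing experiment. In the vehicle libraries 63 members had a mean of 1 TPM or more, with a median of 55.8 TPM. Complex IV spanned the widest range, from COX7C at 1111 ± 66.7 TPM (SD, n = 3) and COX6A1 at 866 ± 34.8 TPM to COX7B2 at 1.77 ± 0.630 TPM. The highest member of complex I was NDUFB10, at 293 ± 26.6 TPM, and the lowest NDUFA10, at 5.27 ± 0.736 TPM. The 4 subunits of complex II lay much closer together, from SDHA at 17.3 ± 2.05 TPM to SDHD at 55.8 ± 4.92 TPM, with SDHB (42.5 ± 4.51) and SDHC (44.7 ± 5.99) not separated beyond their SDs. Complex III ran from UQCRB at 15.6 ± 2.17 TPM to UQCRH at 231 ± 35.9 TPM. The tissue-restricted isoforms COX4I2, COX6A2, COX6B2, COX7A1 and COX8C, which replace the ubiquitous forms in organs such as lung, heart, skeletal muscle or testis, were at most 0.0813 TPM on average. In DOX replicate 2 these 5 genes had 0.0941 to 0.722 TPM, and no other DOX library exceeded 0.0396 TPM for any of them.

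**Figure D1:**
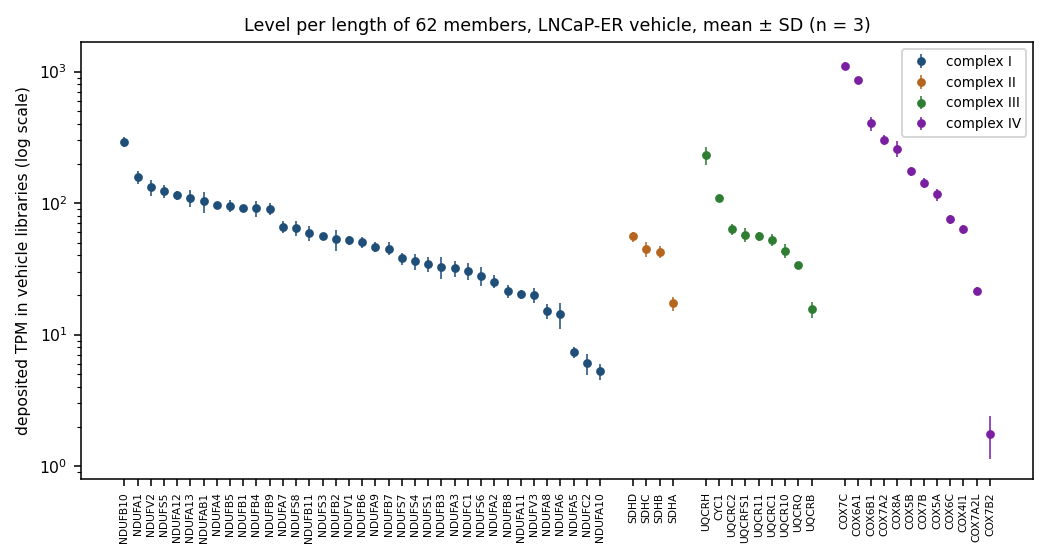
Deposited TPM (log scale) of 62 members with at least 1 TPM on average in LNCaP-ER vehicle libraries, grouped by complex, points being means and bars SDs over 3 libraries. Complex IV reaches from 1.77 to 1111 TPM, whereas the 4 complex II genes stay between 17.3 and 55.8 TPM.

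Few members changed when MUC1 shRNA was induced in LNCaP-ER cells. Of the 63 members that passed the filter on low counts, 5 were higher and 3 lower in DOX libraries by edgeR's quasi-likelihood test at an adjusted p under 0.05, a share of 12.7%. Complex I holds 7 of these 8 and 38 of the 63 members tested, so 18.4% of its members were called. Among all 14683 genes tested, 27.3% were called, 12.8% higher and 14.5% lower. The median log2 fold change of the members was 0.03, beside -0.02 over all genes. Of the 63 members, 45 had a 95% interval of the log2 fold change that lay within 0.5 of 0, as did 27.3% of all genes tested. The groups did not overlap for 23 members, 12 higher and 11 lower, which compares with 21.2% and 23% of all genes (44.3% in either direction). A log2 fold change beyond 0.5 in size was measured for 5 members, against 32.5% of all genes. The summed members measured 6037 ± 458 CPM in vehicle and 5952 ± 213 CPM in DOX libraries, with overlapping groups.

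The largest increase was that of NDUFB2, an accessory subunit of the membrane arm of complex I. Its CPM was 19.1, 17.5 and 18.2 in vehicle and 23.5, 25.4 and 34.7 in DOX libraries, a log2 fold change of 0.61 ± 0.157 (SE, adjusted p = 0.0208). The groups did not overlap, and the highest value was that of DOX replicate 3. NDUFB1, of the same arm, measured 17.8, 21.3 and 21.7 CPM in vehicle against 25.9, 27.9 and 33.6 CPM in DOX libraries (0.52 ± 0.139, adjusted p = 0.0235). NDUFA2, a small accessory subunit of the matrix arm, went from 23.4, 28.03 and 25.7 CPM to 31.1, 35.5 and 33.9 CPM (0.38 ± 0.114, adjusted p = 0.0355). Both genes were again separate between the groups.

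Among the nuclear-encoded core subunits of complex I, which carry the NADH site and the iron-sulfur clusters, NDUFV2 rose. It measured 139.8, 142 and 141 CPM in vehicle and 173, 175 and 184 CPM in DOX libraries (0.33 ± 0.0804, adjusted p = 0.0164). NDUFV1, its partner in the NADH-oxidizing module, had a log2 fold change of 0.23 ± 0.0958 without passing the test (adjusted p = 0.103). NDUFS8 had 0.21 ± 0.126, NDUFS3 had 0.03 ± 0.120, NDUFS7 had 0.01 ± 0.132 and NDUFS1 had -0.15 ± 0.0850, none past the threshold.

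The decrease with the smallest p was that of NDUFB5, a membrane-arm subunit on chromosome 3 (179604794 to 179627647). It measured 119, 119.5 and 132 CPM in vehicle and 86.5, 85.8 and 77.4 CPM in DOX libraries, so the lowest vehicle value lay well above the highest DOX value, and the log2 fold change was -0.57 ± 0.0926 (adjusted p = 0.00334). The call of NDUFB5 was kept under 14 of 16 alternatives and lost on log2(TPM + 1) and log2(TPM + 0.1). Over the alternatives its log2 fold change ran from -0.62 to -0.016. NDUFAB1, the mitochondrial acyl carrier protein that is also bound in complex I, went from 67.2, 64.6 and 63.2 CPM to 53.5, 50.9 and 50.5 CPM (-0.33 ± 0.0862, adjusted p = 0.0211). COX7A2, the ubiquitous isoform of a small complex IV subunit, had 223, 231 and 255 CPM in vehicle and 178, 206 and 171 CPM in DOX libraries (-0.35 ± 0.103, adjusted p = 0.0334).

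**Figure D2:**
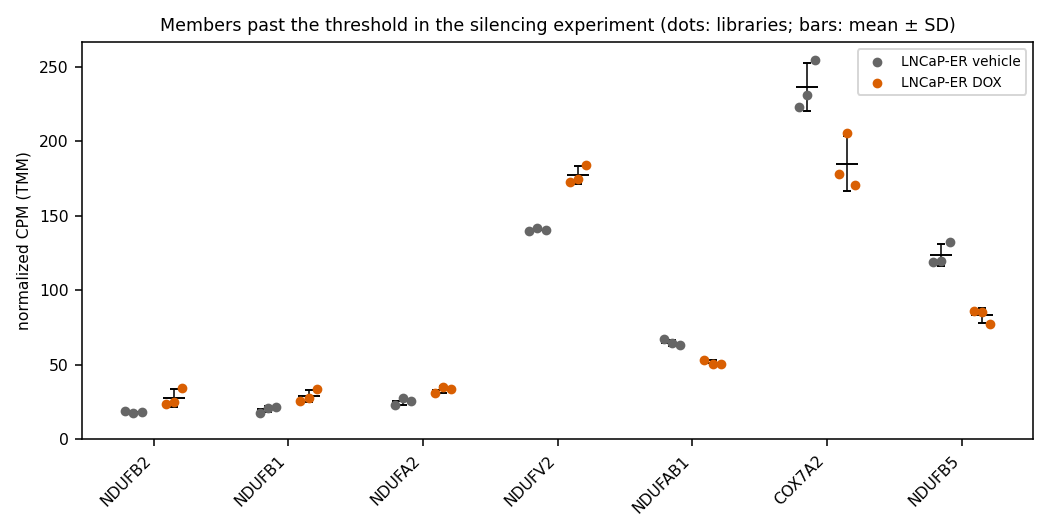
Normalized CPM in each library of the silencing experiment for 7 members past the threshold, with the mean and SD over 3 libraries per group. DOX libraries lie above all vehicle libraries for the 4 genes on the left and below them for NDUFAB1, COX7A2 and NDUFB5.

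No subunit of complex II or III passed the test in the silencing experiment with edgeR or with DESeq2, and an unadjusted p under 0.05 was reached by 1 of 4 and 1 of 9 of them with either tool. SDHA, the flavoprotein that oxidizes succinate, had 66.7, 78.6 and 71.7 CPM in vehicle and 89.1, 83.5 and 91.6 CPM in DOX libraries, a log2 fold change of 0.28 ± 0.0962 with an adjusted p of 0.0562. It passed when DOX replicate 2 was left out (0.35, adjusted p = 0.0229), with library size only (0.36, adjusted p = 0.0147) and with at least 10 counts required in every library (0.30, adjusted p = 0.0403). SDHA also passed on log2(TPM + 1) (0.81, adjusted p = 0.00112), where the median of all genes was higher in DOX libraries and 2 of the 4 subunits were called. SDHD, a membrane anchor, had -0.20 ± 0.0894 (adjusted p = 0.130), and the 95% intervals of SDHB (-0.33 to 0.19) and SDHC (-0.21 to 0.16) included 0. In complex III the Rieske protein UQCRFS1 had a log2 fold change of 0.15 ± 0.0844, the core proteins UQCRC1 and UQCRC2 had 0.06 ± 0.103 and -0.19 ± 0.0877, and cytochrome c1 (CYC1) had -0.15 ± 0.100. With TMM scaling all 9 intervals of complex III lay within 0.5 of 0 on the log2 scale. On log2(TPM + 1) 6 of the 9 were called higher, with a median of 0.61, beside a median of 0.45 over all genes. In complex IV, COX4I1, COX6A1 and COX7B had 0.03 ± 0.136, -0.28 ± 0.126 and -0.14 ± 0.146, and the scarcely expressed COX7B2 had -0.81 ± 0.490 from 0.371 to 0.904 CPM per library.

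The number of calls moved with single libraries and with the scaling. Leaving out vehicle replicate 2, vehicle replicate 3 or DOX replicate 3 left 0 members higher by edgeR and 1 lower, NDUFB5, with 9, 6 and 5 members higher at an unadjusted p under 0.05. Calls over all genes fell in the same 3 fits, from 1875 to 942, 839 and 897 higher and from 2131 to 1258, 1163 and 1170 lower. The fold changes moved less, as NDUFB2 had a log2 fold change of 0.57, 0.60 and 0.41 in them and NDUFV2 had 0.33, 0.32 and 0.30. Without vehicle replicate 1 there were 2 higher and 5 lower, and without DOX replicate 2 there were 6 higher and 4 lower, beside 18% and 17.3% of all genes. With library size as the only scaling 9 were higher and 1 lower, beside 16.5% and 11.2% of all genes, as the median over all genes moved to 0.06. On log2(TPM + 1) with limma 39 were higher and 0 lower, with 0 lower also at an unadjusted p under 0.05, on a scale where the median of all genes was itself 0.45 higher in DOX libraries and that of the members 0.56 higher. Few genes were called lower there at all, 2.23% against 43.8% called higher.

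Most members differed between the groups of the overexpression experiment, in both directions. Of 63 members tested, 24 were higher and 17 lower in libraries labelled MUC1-C OE by the same test, a share of 65.1% beside a background of 67.3% among 13836 genes (33.2% higher and 34.1% lower). The members' share was thus close to that of all genes. Their median log2 fold change was 0.02, beside -0.01 over all genes, and their groups did not overlap for 24 members higher and 18 lower, against 34.4% and 35.9% of all genes (70.3% in either direction). A log2 fold change beyond 0.5 in size was measured for 14 members, against 35% of all genes. With library size only, the median of all genes moved to -0.16 and the split of the members turned to 14 higher and 31 lower, beside 22% and 46.2% of all genes. The direction of a small change therefore depends on the scaling. Under all 14 alternatives 14 members kept their call, 11 higher and 3 lower. The alternatives include a limit of 0.5 on the log2 fold change, which alone left 11 higher and 3 lower and so set this balance. Lost under that limit only were the higher calls of COX6B1, NDUFB7 and UQCRFS1. The same held for the lower calls of COX6C, COX8A, NDUFA8, NDUFA10, NDUFAB1, NDUFB5, NDUFV1 and UQCRB. NDUFB1, COX4I1, UQCR11 and UQCRQ, described below as higher, were among those not called with library size only.

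**Figure D3:**
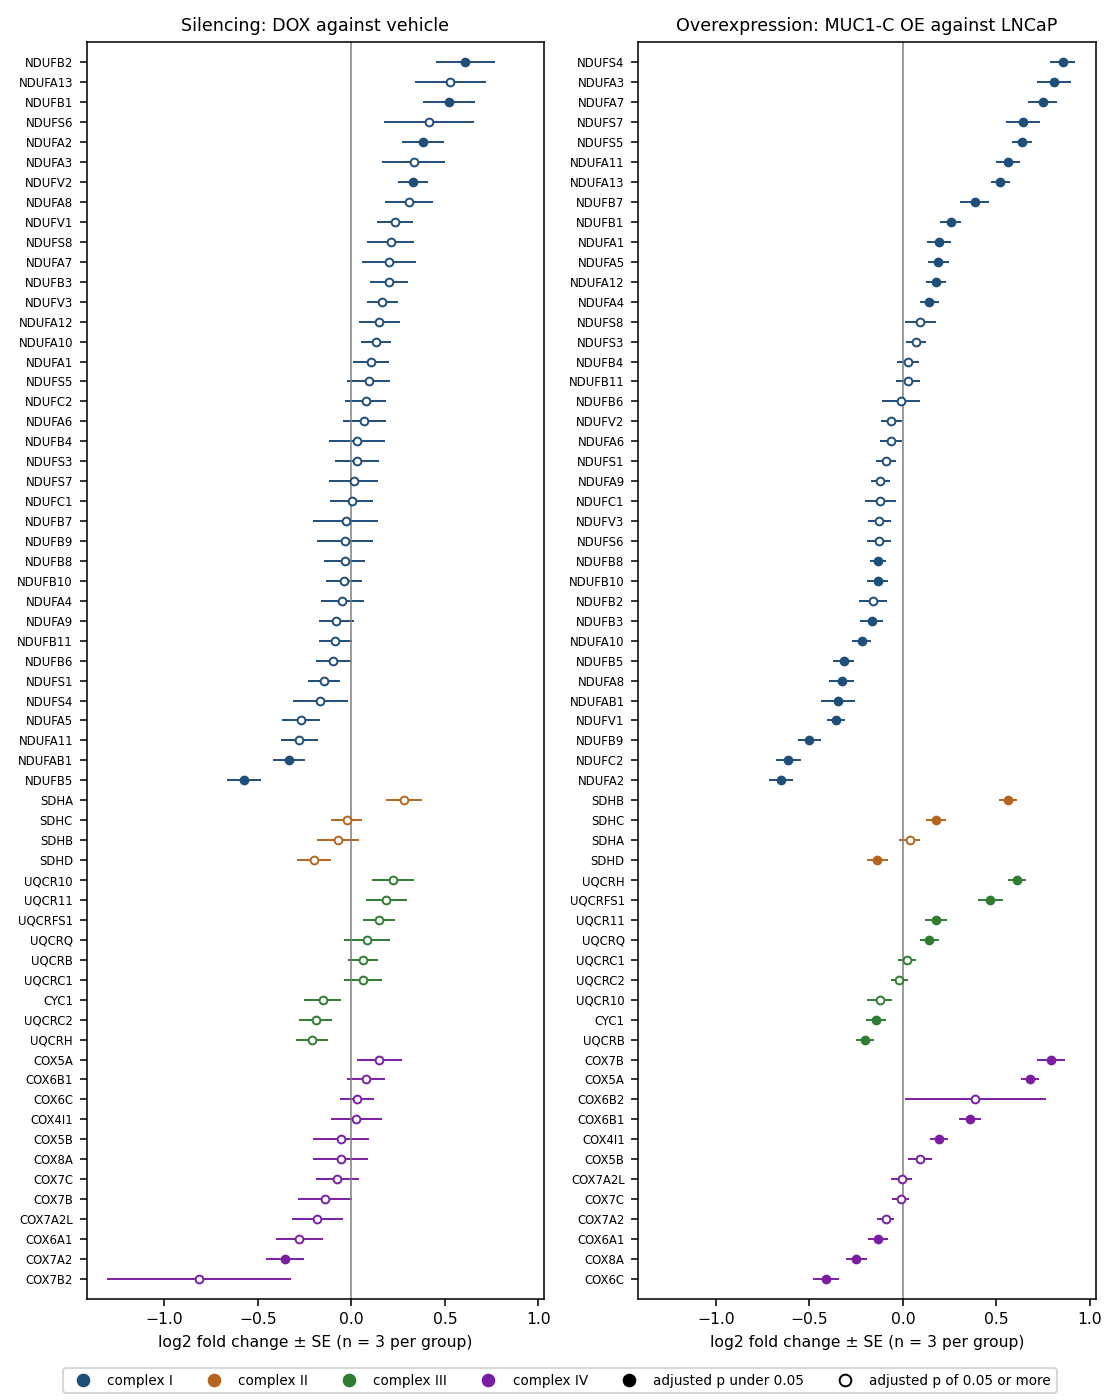
Log2 fold change with its SE for 62 members tested in each experiment, ordered within each complex, n = 3 libraries per group, filled points having an adjusted p under 0.05. In the silencing experiment 7 points are filled, and in the overexpression experiment 40, on both sides of 0 in every complex.

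The largest increases in complex I were those of NDUFS4, NDUFA3 and NDUFA7. NDUFS4, an accessory subunit of the matrix arm known from Leigh syndrome, lies on chromosome 5 (53560639 to 53683338) and measured 26.8, 25.5 and 24.9 CPM in libraries labelled LNCaP and 45.7, 48.0 and 46.2 CPM in those labelled MUC1-C OE. Its log2 fold change was 0.85 ± 0.0658 (SE, adjusted p = 3.64e-09), with a wide gap between the groups. NDUFA3, a small membrane-arm subunit, had 33.0, 37.7 and 32.4 CPM against 64.2, 50.9 and 65.0 CPM (0.81 ± 0.0897, adjusted p = 1.21e-06). NDUFA7 had 24.9, 27.6 and 24.9 CPM against 47.1, 39.5 and 43.0 CPM (0.75 ± 0.0769, adjusted p = 1.48e-07). In both genes MUC1-C OE replicate 2 was the lowest of its group and still above each library labelled LNCaP. NDUFS5, NDUFA11 and NDUFA13 were higher by 0.64, 0.56 and 0.52 on the log2 scale.

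The largest decreases in complex I were those of NDUFA2, NDUFC2 and NDUFB9. NDUFA2 (chromosome 5, 140645285 to 140647630) had 58.4, 56.6 and 59.8 CPM in libraries labelled LNCaP and 35.5, 36.5 and 39.0 CPM in those labelled MUC1-C OE, a log2 fold change of -0.65 ± 0.0625 (adjusted p = 6.02e-08). NDUFC2, a membrane-arm subunit, went from 52.3, 51.8 and 51.2 CPM to 36.4, 31.4 and 33.7 CPM (-0.61 ± 0.0663, adjusted p = 2.87e-07). NDUFB9 went from 170.4, 189 and 173 CPM to 137, 116 and 122 CPM (-0.50 ± 0.0601, adjusted p = 1.07e-06). These 3 genes had no overlap between the groups.

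Core and accessory subunits of complex I did not move as 1 block. Among the core subunits, NDUFS7 rose from 15.1, 15.05 and 18.5 CPM to 24.0, 25.2 and 26.5 CPM (0.64 ± 0.0921, adjusted p = 8.29e-06). NDUFV1, which binds NADH, fell from 132, 128 and 132 CPM to 102, 99.98 and 104 CPM (-0.36 ± 0.0470, adjusted p = 3.08e-06). The core subunits NDUFS1 (-0.09 ± 0.0542), NDUFS3 (0.07 ± 0.0518), NDUFS8 (0.09 ± 0.0814) and NDUFV2 (-0.06 ± 0.0550) were not past the threshold. By name, 8 of 14 NDUFA genes were higher and 4 lower, while 2 of 11 NDUFB genes were higher and 5 lower. With library size only these counts were 4 and 6 for NDUFA and 1 and 6 for NDUFB, so the balance of the NDUFA genes turned with the scaling and that of the NDUFB genes did not. By DESeq2, 2 NDUFB genes were higher and 3 lower.

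The 4 genes of complex II went in different directions. SDHB, the iron-sulfur subunit (chromosome 1, 17018722 to 17054032), had 83.4, 86.3 and 85.8 CPM in libraries labelled LNCaP and 129.9, 126 and 121 CPM in those labelled MUC1-C OE, a log2 fold change of 0.56 ± 0.0493 (adjusted p = 1.90e-08). SDHA, which holds the succinate site and binds SDHB, had 154, 169 and 154 CPM against 173, 153 and 163 CPM, with overlapping groups and a 95% interval of -0.08 to 0.15. Of the membrane anchors, SDHC had 64.7, 63.5 and 66.4 CPM against 72.4, 73.4 and 74.0 CPM (0.18 ± 0.0529, adjusted p = 0.00727) and SDHD had 90.04, 85.3 and 87.0 CPM against 77.3, 85.4 and 76.3 CPM (-0.14 ± 0.0562, adjusted p = 0.0409). The SDHD groups overlapped through MUC1-C OE replicate 2, and its call was lost under 9 of the 14 alternatives. SDHC was no longer called with library size only (0.02). The ETS letters shown above lie before the starts of both SDHB and SDHD. Of the 15 members with these letters in their window, 9 were higher, 3 lower and 3 not called with MUC1-C OE. Among all 56 members with a window, 20 were higher and 11 lower. A link between the letters and the direction was not tested.

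In complex III, UQCRH, the acidic hinge protein, rose from 99.05, 100.3 and 100.04 CPM to 155, 149 and 153 CPM (0.61 ± 0.0464, adjusted p = 3.01e-09). UQCRFS1, the Rieske iron-sulfur protein, rose from 58.5, 63.3 and 59.1 CPM to 88.1, 74.0 and 87.5 CPM (0.47 ± 0.0667, adjusted p = 7.71e-06), again with MUC1-C OE replicate 2 lowest in its group. The core proteins UQCRC1 (0.02 ± 0.0463) and UQCRC2 (-0.02 ± 0.0473) were not called, and their 95% intervals lay between -0.12 and 0.12. UQCRC1 was called lower (-0.13, adjusted p = 0.0172) with library size only. UQCRB fell by 0.20 ± 0.0468 (adjusted p = 0.000980) and CYC1 by 0.14 ± 0.0517 (adjusted p = 0.0217) on the log2 scale, while UQCR11 and UQCRQ rose by 0.18 and 0.14.

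In complex IV, COX7B, on the X chromosome (77899468 to 77907376), had 159.7, 192 and 160.5 CPM in libraries labelled LNCaP and 312, 268 and 306 CPM in those labelled MUC1-C OE (0.79 ± 0.0747, adjusted p = 6.98e-07). COX5A, which contacts the catalytic core, had 129, 134 and 132 CPM against 218, 200.1 and 213 CPM (0.68 ± 0.0484, adjusted p = 1.32e-09). COX6B1, which faces the intermembrane space, and COX4I1, the ubiquitous form of the largest nuclear-encoded subunit, rose by 0.36 ± 0.0583 (adjusted p = 3.16e-05) and 0.19 ± 0.0470 (adjusted p = 0.00145). COX6C fell from 130.2, 112 and 127 CPM to 91.1, 102 and 85.3 CPM (-0.41 ± 0.0693, adjusted p = 7.96e-05), with no overlap. COX8A and COX6A1 fell by 0.25 ± 0.0577 (adjusted p = 0.00103) and 0.13 ± 0.0547 (adjusted p = 0.0404), and the COX6A1 call was lost under 8 of the 14 alternatives. COX7A2 (-0.09 ± 0.0457) and COX7A2L (-0.01 ± 0.0563) were not called. Of the restricted isoforms, COX4I2, COX6A2 and COX7A1 had no count in any of the 6 libraries, which is under the floor of 3 counts per library, and COX6B2 was tested at 0.394 to 0.812 CPM (0.39 ± 0.378, adjusted p = 0.375).

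**Figure D4:**
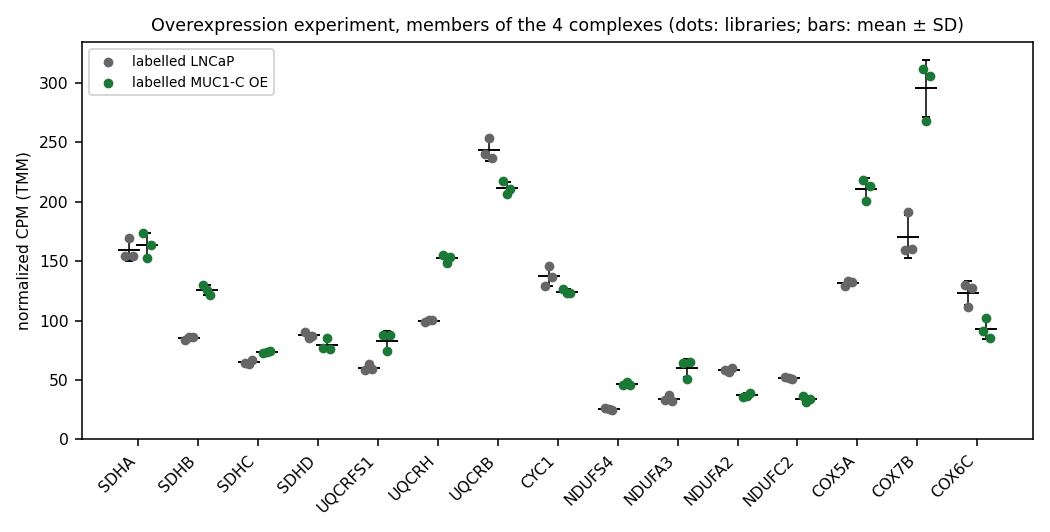
Normalized CPM in each library of the overexpression experiment for 15 members of the 4 complexes, with the mean and SD over 3 libraries per group. SDHB, UQCRH, NDUFS4, COX5A and COX7B lie higher in all libraries labelled MUC1-C OE, whereas NDUFA2, NDUFC2 and COX6C lie lower.

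Summed by complex, the members measured 397 ± 6.60 CPM in libraries labelled LNCaP and 442 ± 9.63 CPM in those labelled MUC1-C OE for complex II, and 1586 ± 22.5 CPM against 1796 ± 70.2 CPM for complex IV, with no overlap. The sums of complex I (3250 ± 27.8 against 3272 ± 44.3 CPM) and complex III (1271 ± 35.2 against 1307 ± 25.1 CPM) overlapped. This order also depended on the scaling. As CPM of the library totals alone, complex I measured 3425 ± 20.4 against 3101 ± 42.5 and complex III 1340 ± 33.6 against 1238 ± 23.8, both lower in libraries labelled MUC1-C OE without overlap, while the sums of complexes II and IV overlapped.

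The experiments share no library, and their difference was not tested. Side by side, 62 members were tested in both. NDUFB1 was higher in both, and NDUFB5 and NDUFAB1 were lower in both, although DOX was meant to lower MUC1 and the other experiment to raise it. With MUC1-C OE the call of NDUFB1 was lost with library size only, and the groups of NDUFAB1 overlapped, at 96.1, 81.1 and 97.7 CPM in libraries labelled LNCaP and 66.1, 82.7 and 67.9 CPM in those labelled MUC1-C OE. NDUFA2 was higher in DOX libraries (0.38) and lower with MUC1-C OE (-0.65). NDUFB2, NDUFV2 and COX7A2, called in the silencing experiment, were not called in the other (-0.16, -0.06 and -0.09), and 36 members called with MUC1-C OE were not called in the silencing experiment. The signs were the same for 36 members and opposite for 26.

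**Figure D5:**
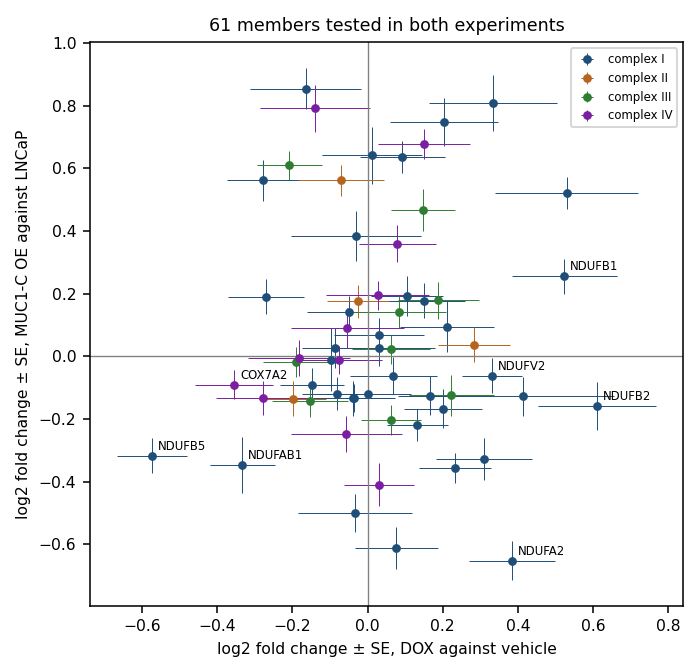
Log2 fold change of 61 members in the silencing experiment (horizontal) and the overexpression experiment (vertical), with SEs, coloured by complex and with 7 members called in the silencing experiment named. NDUFB5 and NDUFAB1 lie at lower left, NDUFB1 at upper right, and NDUFA2 at lower right.

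The regulators of these genes were also measured. The counts of this list and of the next ones stand beside 12.8% higher and 14.5% lower among all genes with DOX, and 33.2% and 34.1% with MUC1-C OE. In the silencing experiment, of 14 regulators of mitochondrial biogenesis, 0 were higher by edgeR (0 also at an unadjusted p under 0.05, and 0 by DESeq2) and 5 lower, namely NRF1, GABPA, GABPB1, PPARGC1B and MYC, with a list median of -0.15. GABPA, the DNA-binding subunit of GABP, went from 75.2 ± 3.23 CPM to 47.1 ± 3.30 CPM (-0.68, adjusted p = 0.00189), NRF1 from 20.6 ± 5.83 to 11.5 ± 2.41 CPM (-0.84, adjusted p = 0.0282) with overlapping groups. MYC, at 375, 623 and 622 CPM in vehicle and 391, 376 and 313 CPM in DOX libraries, kept its call (adjusted p = 0.0491) under 4 of 16 alternatives, PPARGC1B under 7, NRF1 under 10, GABPB1 under 11 and GABPA under 14. Without vehicle replicate 2 there were 2 regulators lower, and without vehicle replicate 3 or DOX replicate 3 there was 1. Without DOX replicate 2, 1 regulator was higher and 5 were lower. By DESeq2, 1 was higher at an unadjusted p under 0.05. In the overexpression experiment 9 of the 14 passed as higher and 3 as lower, the list median being 0.19. GABPA rose by 0.58 (adjusted p = 3.52e-08), NRF1 by 0.35 (adjusted p = 0.000298) and TFB1M by 0.90 (adjusted p = 1.68e-08). The coactivator PPARGC1A fell by 1.64 (adjusted p = 4.43e-09) and its partner ESRRA by 0.66 (adjusted p = 8.90e-06). TFB2M was also called lower, with log2 fold changes of -0.47 to -0.25 over the alternatives, and kept that call under 13 of 14. With library size only, 1 regulator was higher and 3 were lower with DOX, and 5 were higher and 3 lower with MUC1-C OE, while on log2(TPM + 1) 3 of 13 were higher and 0 lower with DOX. The opposite balance of the regulators in the 2 experiments was noticed after their values were seen, and the difference was not tested. PPARGC1B (0.10) and the packaging factor TFAM (0.10) were not called with MUC1-C OE. TFAM was not called in the silencing experiment either (-0.17, adjusted p = 0.176).

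The assembly factors of complexes I and IV had members called in both directions in each experiment. For complex I assembly, 5 of 16 were higher and 8 lower with MUC1-C OE, from ECSIT (0.84) to FOXRED1 (-0.47), and 3 higher and 2 lower in the silencing experiment, from NDUFAF1 (0.78) to ECSIT (-0.55). For complex IV assembly, 6 of 24 were higher and 10 lower with MUC1-C OE, from COA7 (0.76) to COX15 (-0.74), and 4 higher and 1 lower with DOX, from SURF1 (0.71) to LRPPRC (-0.54). For complex II assembly, 2 of 4 were higher (SDHAF1, 0.38) and 2 lower (C6orf57, the older symbol of SDHAF4, -0.41) with MUC1-C OE, and SDHAF2 alone was higher with DOX (0.30). For complex III assembly, 2 of 6 were higher (LYRM7, 0.23) and 1 lower (UQCC1, -0.31) with MUC1-C OE, and UQCC2 alone was lower with DOX (-0.51). With library size only, the MUC1-C OE counts became 1 higher and 10 lower for complex I assembly, 0 and 2 for complex II, 0 and 1 for complex III, and 4 and 14 for complex IV. On log2(TPM + 1) the DOX counts became 7 higher and 0 lower for complex I assembly, 3 and 0 for complex II, 4 and 0 for complex III, and 10 and 0 for complex IV. Without vehicle replicate 2, vehicle replicate 3 or DOX replicate 3, complex I assembly had 1 gene higher and 0 lower with DOX, and complex IV assembly 1 to 2 higher and 0 lower.

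Downstream of complex III, cytochrome c (CYCS) fell in the silencing experiment from 420 ± 12.1 to 310 ± 30.4 CPM (-0.44, adjusted p = 0.0130) and was not called with MUC1-C OE (0.10). The DOX call of CYCS was kept under 10 of 16 alternatives, over which its log2 fold change ran from -0.51 to 0.11. It was lost, among others, without vehicle replicate 2, vehicle replicate 3 or DOX replicate 3 and on log2(TPM + 1). Of 12 mobile carriers and ubiquinone synthesis genes, 3 were lower and 0 higher with DOX by edgeR, the largest decrease being that of COQ7 (-0.66), with 2 higher at an unadjusted p under 0.05 and 0 higher by DESeq2. On log2(TPM + 1) 4 of the 12 were higher and 0 lower. Without DOX replicate 2 there were 3 higher and 4 lower, and 1 was lower without vehicle replicate 2, vehicle replicate 3 or DOX replicate 3. With MUC1-C OE 4 were higher, led by ADCK3 (1.75), and 3 lower, led by COQ9 (-0.56), which became 2 and 4 with library size only. ATP synthase had 2 of 17 genes higher with DOX (ATP5G1, 0.47) and, with MUC1-C OE, 5 of 18 higher (ATP5C1, 0.59) and 3 lower (ATP5J, -0.33). This balance turned to 3 higher and 8 lower with library size only, and 11 of the 17 were higher with DOX on log2(TPM + 1). Without vehicle replicate 3, DOX replicate 1 or DOX replicate 3, 0 of the ATP synthase genes were higher with DOX by edgeR (2, 3 and 2 at an unadjusted p under 0.05), and without vehicle replicate 2 there was 1. NDUFA4L2, the paralog of NDUFA4 that hypoxia induces, had a log2 fold change of -0.19 ± 0.629 with DOX and at most 4 counts in any library of the overexpression experiment. Among the 6 paralogs and alternative partners, 0 were called with DOX by edgeR, by DESeq2 or, as increases, at an unadjusted p under 0.05. On log2(TPM + 1) 2 of the 6 were higher with DOX, and on log2(TPM + 0.1) 3 were. HIGD1A alone was lower with MUC1-C OE (-0.20), whereas with library size only 3 of the 5 tested were lower.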

How the data were processed

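Stranded mRNA libraries were sequenced by the authors, whose processing notes name STAR, DESeq2 and GRCh38. Aligner versions, annotation and the use of strand in counting are not given in the sources used here. The deposited count tables hold whole-number counts per gene symbol, not normalized, in a separate table for each experiment, and the tables use partly different symbols. The deposited TPM values cover the silencing experiment. In the TPM table the authors' scaling fixes the total per library. The overexpression table also holds 12 columns for other cell lines, not used. Its control columns are named vector while the labels say wild-type, and the titles of the MUC1-C OE libraries carry an sh prefix.

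Each experiment was fitted over all genes with edgeR 4.0.16 (TMM, default filter, robust quasi-likelihood test, Benjamini-Hochberg adjustment, threshold 0.05) in R 4.3.3, and the script was tested on simulated counts. CPM are TMM-normalized unless said otherwise, and marker sums use library totals. Alternatives used DESeq2 1.42.0, other scalings and filters, each library left out, a replicate block, length-corrected offsets, and limma 3.58.1 on log2(TPM + 1) and log2(TPM + 0.1) for genes with at least 1 TPM in 3 libraries. Replicate counts differed beyond sampling noise. Where a library was left out, the others of its group set the spread.

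The genes named are all members, with errors for complex II, core subunits of complex I, UQCRC1, UQCRC2, UQCRFS1, CYC1, the complex IV isoforms and up to 3 largest increases and decreases per complex, and, from the other lists, set regulators and the largest increase and decrease. A member that counts among the totals is not reported here by name or in the figures. Other genes were named after their values were seen. Members and lists were chosen with earlier results of these data known. No gene was listed under the 13 mitochondrially encoded names. GENCODE 29 lists 115 pseudogenes named after 34 members, of which 4 are in the count tables, so reads shared with such copies (17 for COX6C, 12 each for NDUFA5 and NDUFB4) may be misassigned. Coordinates and promoter sequences are from RefSeq tables for GRCh38.p14. Counts carry no molecular identifiers, so floors cover counting error only.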

Additional observations from a re-analysis of the deposited data

How the results depend on the processing

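In the silencing experiment the main counts of members, 5 higher and 3 lower, became 9 and 1 with library size only, 3 and 1 without a filter on low counts, 2 and 1 when a log2 fold change of 0.5 or more in either direction was also required, and 39 and 0 on log2(TPM + 1) or log2(TPM + 0.1). Leaving out 1 library at a time gave 0 to 6 higher and 1 to 5 lower. In the overexpression experiment, 24 higher and 17 lower became 14 and 31 with library size only and 11 and 3 with the fold limit, and leaving out 1 library gave 21 to 24 higher and 12 to 17 lower. The causes were not tested beyond the shift in the median of all genes given above. DESeq2, median-of-ratios factors, at least 10 counts in every library and length-corrected offsets kept these 4 totals within 1.5 times, but not each count by family or complex (above). On log2(TPM + 1) and log2(TPM + 0.1), COX7A2 turned to 0.20 and 0.20, NDUFAB1 to 0.22 and 0.23, and SDHC to 0.52 and 0.53, and with library size only UQCRC1 turned to -0.13.

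With the replicate number as a block, 6 members were higher and 3 lower with DOX, and 24 were higher and 14 lower with MUC1-C OE. Deviations of same-numbered libraries correlated between -0.149 and 0.087, so the numbers were not taken to pair the samples.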

Other observations

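Of 20 genes of mitochondrial protein import and mass, 6 were lower and 0 higher in the silencing experiment by edgeR (0 higher also by DESeq2 and at an unadjusted p under 0.05) (list median -0.11), and 12 were higher and 4 lower with MUC1-C OE (list median 0.30), beside 14.5% lower and 12.8% higher among all genes with DOX and 33.2% higher and 34.1% lower with MUC1-C OE. TOMM20, a receptor of the outer membrane import pore, measured 536 ± 37.4 CPM in vehicle and 346 ± 43.7 CPM in DOX libraries (-0.63, adjusted p = 0.00551), and 414 ± 3.52 CPM in libraries labelled LNCaP against 721 ± 54.8 CPM in those labelled MUC1-C OE (0.80, adjusted p = 3.24e-10). TIMM50, of the inner membrane import machinery, rose by 0.85 (adjusted p = 1.38e-10) with MUC1-C OE and had 0.01 with DOX, and HSPA9, the matrix chaperone that pulls proteins in, fell by 0.43 with MUC1-C OE and by 0.38 with DOX (adjusted p = 0.0450). The DOX calls of HSPD1 and HSPA9 held under 4 and 5 of 16 alternatives, and those of TOMM20, TOMM70, TIMM44 and PHB2 under 14. Leaving out a library gave 4 to 6 lower with DOX. Without DOX replicate 2 there were 1 higher and 4 lower, with 4 higher at an unadjusted p under 0.05 and a list median of 0.009. The silencing counts were 8 higher and 0 lower on log2(TPM + 1), where the median of all genes was higher in DOX libraries. With library size only they were 0 higher and 4 lower, and those with MUC1-C OE were 10 higher and 7 lower. The lists came with earlier results known and the difference between the experiments was not tested.

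The mitochondrial ribosomal proteins, 77 of which were tested with DOX and 76 with MUC1-C OE, were called in both directions. With DOX 6 were higher and 9 lower, from MRPS36 (0.67) to MRPL42, which went from 297 to 114 CPM (-1.37, adjusted p = 0.00046). With MUC1-C OE 22 were higher and 20 lower, from MRPL55 (0.99) to MRPL15 (-0.46). With library size only the latter counts were 12 and 38. The DOX counts were 49 higher and 1 lower on log2(TPM + 1), 15 and 6 without DOX replicate 2, 2 and 2 without vehicle replicate 2, 1 and 1 without vehicle replicate 3, 3 and 6 without DOX replicate 1 and 1 and 3 without DOX replicate 3. Over all genes 27.3% were called with DOX and 67.3% with MUC1-C OE.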
